A study of Mus musculus with 16 samples.

Results

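The genes described here encode collagen chaperones, hydroxylases, procollagen processing proteins and crosslinkers, measured by bulk RNA sequencing of mouse hearts. The set was a list of 10 gene symbols, and all 10 were found among the 18346 genes of the deposited count table and passed the filter on low counts. They are Serpinh1 (Entrez 12406) and Fkbp10 (14230), both chaperones, the hydroxylases P4ha1 (18451), P4ha2 (18452), Plod1 (18822) and Plod2 (26432), Pcolce (18542) and Bmp1 (12153) of procollagen processing, and the crosslinkers Lox (16948) and Loxl1 (16949). The list was chosen from an earlier account of these data that named Fkbp10 for its higher level in aged KO than in aged WT hearts. No p is therefore given for that change, and its call is counted without being read as evidence. There were 4 groups of 4 hearts: aged mice with a systemic knockout of Armh4 (KO, 25 months), aged wild-type mice (WT, 25 months), young KO mice (8 weeks) and young WT mice (8 weeks). The labels name C57BL/6J for the normal mice and do not state the background of the KO line, its founder number or the exon deleted. Mice of all groups were kept under the same housing and normal diet. The labels describe the 4 hearts in each group as independent animals, and a heart is called by its group and animal number. Single values follow the order KO_Aged_114, KO_Aged_115, KO_Aged_122 and KO_Aged_125, WT_Aged_1, WT_Aged_4, WT_Aged_5 and WT_Aged_12, KO_Young_27, KO_Young_31, KO_Young_38 and KO_Young_53, and WT_Young_29, WT_Young_34, WT_Young_39 and WT_Young_42.

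Collagen chains are modified and folded in the endoplasmic reticulum before they are secreted. Prolyl hydroxylases make the hydroxyprolines that stabilise the triple helix, lysyl hydroxylases make the hydroxylysines from which mature crosslinks form, and dedicated chaperones hold the chains until the helix is complete. Outside the cell, proteinases remove the propeptides and lysyl oxidases oxidise lysines so that neighbouring molecules become covalently linked. In the heart these genes are known mainly as products of fibroblasts, and they are studied for their part in the stiffness of the ageing and scarred myocardium.

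Total counts were 11456503 to 13298660 per library. Armh4, the targeted gene, had 1.14 ± 0.368 CPM in aged KO hearts and 18.5 ± 1.94 CPM in aged WT hearts, and 0.374 ± 0.198 CPM in young KO hearts and 15.5 ± 2.49 CPM in young WT hearts (SD, n = 4 each). CPM is the count scaled to library size. Markers of ventricular cardiomyocytes (Myh6, Actc1 and Myl2 the most abundant) summed to between 73142 and 100985 CPM in each of the 16 hearts. Changes are log2 fold changes with their standard error (SE), and "rose" and "fell" are used where the p of edgeR's quasi-likelihood test, adjusted by the Benjamini-Hochberg method over 13373 genes, was under 0.05.

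On a scale that takes gene length into account, the level in FPKM, Serpinh1 was the highest of the set in each group. It averaged 77.4 ± 9.70 FPKM in aged KO hearts, 69.5 ± 7.83 FPKM in aged WT hearts, 107 ± 6.30 FPKM in young KO hearts and 129 ± 20.7 FPKM in young WT hearts (SD, n = 4 each). Pcolce came next with group means of 41.1 to 51.0 FPKM, then Plod1 with 29.7 to 40.5 FPKM and P4ha2 with 24.7 to 29.7 FPKM. The hearts of Serpinh1 and Pcolce did not overlap within any group, whereas those of Pcolce and Plod1 overlapped in both young groups. P4ha1, Bmp1, Plod2, Loxl1 and Fkbp10 lay close together, with group means of 9.12 to 18.3 FPKM, and most neighbours among them overlapped. Lox was the lowest, at 1.16 to 3.42 FPKM, and its mean in aged WT hearts was set by a single heart.

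**Figure D1:**
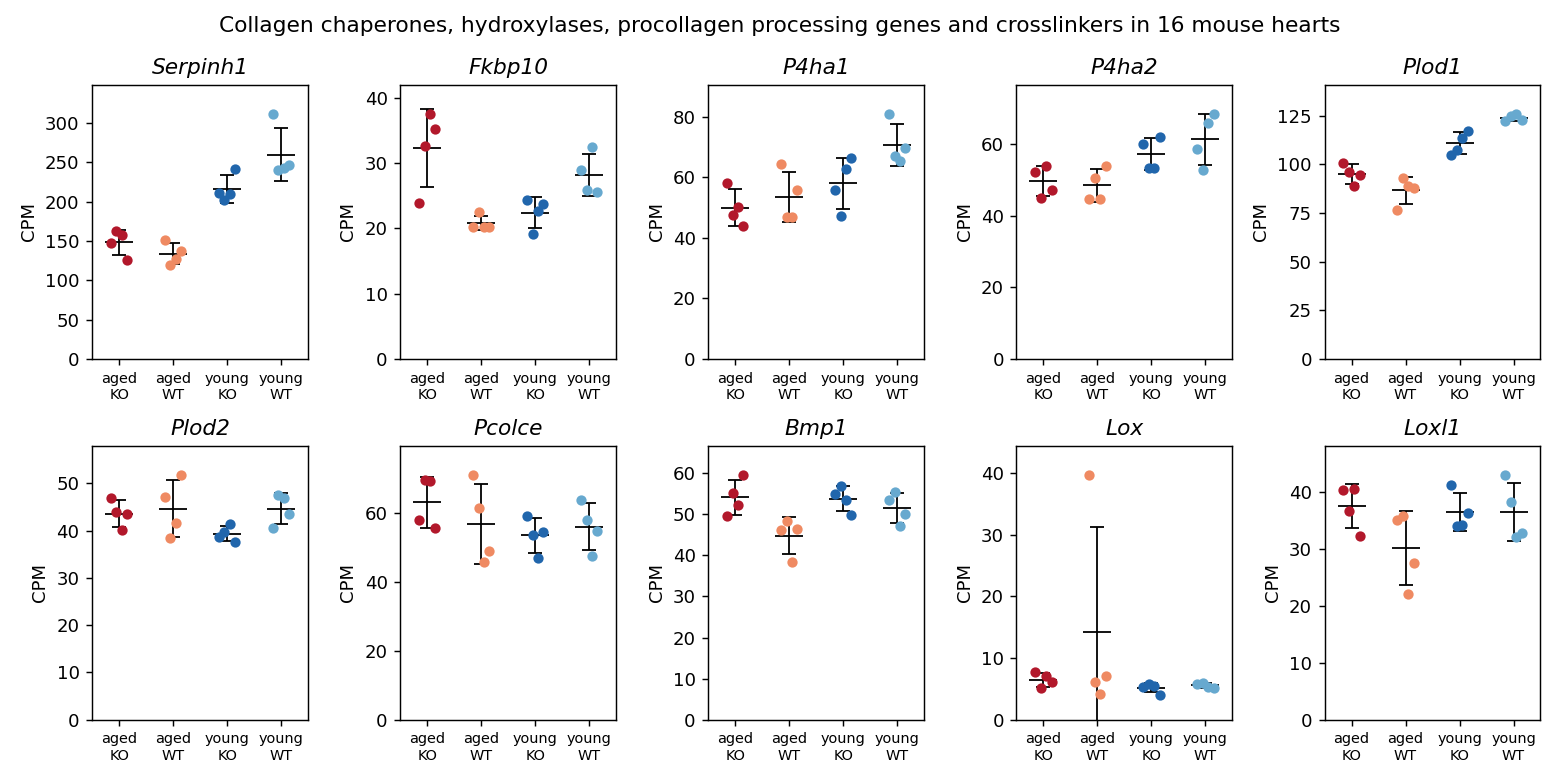
Level in CPM (vertical axis, from 0) of each of the 10 genes in each heart, by group; points are hearts, horizontal bars are means and whiskers are 1 SD over 4 hearts, and the lower whisker of Lox in aged WT hearts passes below the axis. Fkbp10 is the gene whose aged KO hearts lie above all others but for KO_Aged_114 at 23.9 CPM, Serpinh1 and Plod1 are lower in both aged groups, and a single aged WT heart stands at 39.7 CPM for Lox.

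The first comparison asked how the set changed with age in WT hearts. Of the 10 genes, 5 fell in aged WT hearts and none rose, where 21.7% of all tested genes changed, 11.8% higher and 9.93% lower. The 5 were both chaperones, both prolyl hydroxylases of the set and the lysyl hydroxylase Plod1. The median log2 change of the 10 was -0.31, against -0.01 over all tested genes. Since the members were chosen with results of these hearts known, these calls are not independent evidence for the set. The hearts of the 2 groups did not overlap for 4 genes, all lower with age, where 21.7% of tested genes showed no overlap, 12% higher and 9.68% lower.

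Serpinh1 encodes HSP47, the collagen-specific chaperone that binds the folded procollagen helix. It had 150.6, 119.7, 127.3 and 136.9 CPM in aged WT hearts, against 310.7, 239.4, 242.0 and 246.4 CPM in young WT hearts. Every aged WT heart was below every young WT heart. The log2 change was -0.96 ± 0.10 (adjusted p = 2.85e-06), which makes the aged level 0.514 of the young level.

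Plod1 encodes a lysyl hydroxylase that acts mainly on the helical part of collagen. Its level was 76.6, 93.0, 89.0 and 87.7 CPM in aged WT hearts, against 122.2, 124.9, 125.6 and 122.9 CPM in young WT hearts. The groups did not overlap, and the young WT hearts lay within 4 CPM of each other. The log2 change was -0.52 ± 0.07 (adjusted p = 4.12e-05).

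P4ha1 and P4ha2 encode the catalytic subunits of the collagen prolyl 4-hydroxylases. P4ha1 had 64.3, 46.9, 47.0 and 55.8 CPM in aged WT hearts, against 80.8, 67.2, 65.4 and 69.6 CPM in young WT hearts. The groups of P4ha1 came close to each other without overlapping, and its log2 change was -0.40 ± 0.12 (adjusted p = 0.0189). P4ha2 had 44.6, 50.6, 44.8 and 53.9 CPM in aged WT hearts, against 58.5, 52.8, 65.8 and 68.3 CPM in young WT hearts. For P4ha2 the highest aged WT heart passed the lowest young WT heart, and the log2 change was -0.34 ± 0.09 (adjusted p = 0.0135). Both calls depended on single hearts and on the scale. P4ha1 did not pass without WT_Aged_4 (adjusted p = 0.0613), WT_Aged_5 (0.0545) or WT_Young_29 (0.0609), P4ha2 did not pass without WT_Young_39 (0.0631) or WT_Young_42 (0.0568), and neither passed with limma on log2(FPKM + 1), at adjusted p = 0.0730 for P4ha1 and 0.0511 for P4ha2.

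Fkbp10 encodes FKBP65, a prolyl isomerase of the endoplasmic reticulum that assists procollagen folding and the hydroxylation of telopeptide lysines. It had 20.3, 22.5, 20.2 and 20.2 CPM in aged WT hearts, against 28.97, 25.9, 32.5 and 25.5 CPM in young WT hearts. No heart overlapped, and the log2 change was -0.44 ± 0.12 (adjusted p = 0.0131; 0.0648 without WT_Young_39). These aged WT hearts also entered the comparison that singled the gene out.

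The other 5 genes did not pass. Plod2, whose product hydroxylates the telopeptide lysines, averaged 44.7 ± 5.92 CPM in aged WT hearts and 44.7 ± 3.24 CPM in young WT hearts (SD, n = 4 each), with a 95% interval of the log2 change of -0.19 to 0.19. Pcolce, an enhancer of procollagen C-proteinase, had a log2 change of 0.02 with an interval of -0.24 to 0.28. Bmp1, the C-proteinase itself, had a log2 change of -0.20 ± 0.09 (adjusted p = 0.0933), and Loxl1, a lysyl oxidase required for elastic fibres, had -0.28 ± 0.13 (adjusted p = 0.140).

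Lox, the lysyl oxidase that starts crosslinking of collagen and elastin, had 39.7, 6.2, 4.2 and 7.0 CPM in aged WT hearts, against 5.8, 6.0, 5.3 and 5.2 CPM in young WT hearts. WT_Aged_1 alone was high, and the other aged WT hearts surrounded the young ones. The log2 change was 1.35 ± 0.58 (adjusted p = 0.118) with that heart and 0.07 without it. Of the alternatives run, Lox passed only without WT_Aged_5, the lowest heart (log2 change 1.66, adjusted p = 0.0421). In WT_Aged_1 the 8 markers of activated fibroblasts summed to 602 CPM, against 168 to 182 CPM in the other aged WT hearts, and the 8 macrophage markers to 704 CPM, against 495 to 512 CPM. The activated fibroblast sum was 350 CPM in KO_Aged_122, 327 CPM in KO_Aged_114 and 318 CPM in WT_Young_29, where Lox was 7.1, 7.7 and 5.8 CPM. The part of both lists in the Lox level of WT_Aged_1 was not tested.

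In bulk tissue, fewer cells of a type and less RNA per cell cannot be told apart. The 10 fibroblast markers (Gsn, Dcn and Tnxb the most abundant) summed to 2430 to 3101 CPM in aged WT hearts, against 2481 to 3052 CPM in young WT hearts, and 1 of the 10 fell. The 9 smooth muscle and pericyte markers summed to 1058 to 1305 CPM in aged WT hearts, against 1348 to 1779 CPM in young WT hearts, and 4 of the 9 fell. Macrophage markers (C1qa, C1qb and C1qc the most abundant) summed to 495 to 704 CPM in aged WT hearts, against 182 to 256 CPM in young WT hearts, and 7 of the 8 rose. The 8 ventricular cardiomyocyte markers summed to 73142 to 87810 CPM in aged WT hearts, against 88874 to 100166 CPM in young WT hearts, and 3 of the 8 fell. The part of the smooth muscle, macrophage and cardiomyocyte markers in the fall of the 5 genes was not tested. With the fibroblast marker score as a covariate, the count of genes that fell was again 5.

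Promoters are shown for 4 of the genes that fell in aged WT hearts. RefSeq promoter windows were used for 5 of the 10 genes, those of Serpinh1, Plod1, P4ha1, P4ha2 and Pcolce. Each window spans 300 bases (250 before to 50 after the annotated start, build GRCm38.p6), written along the gene's strand. No window was used for Fkbp10, Plod2, Lox, Loxl1 and Bmp1. The chromosome that carries Lox was left out of the members' windows, so a RefSeq entry for Lox would not be shown. The windows below lie at chr7:99353190-99353489 on the minus strand (Serpinh1), chr4:147936727-147937026 on the minus strand (Plod1), chr10:59323046-59323345 on the plus strand (P4ha1) and chr11:54100674-54100973 on the plus strand (P4ha2). Capitals mark matches, on either strand, to GGGCGG (the GC box) and ACGTG (the core of the hypoxia response element), 2 motifs whose letters share no position in these windows.
Serpinh1: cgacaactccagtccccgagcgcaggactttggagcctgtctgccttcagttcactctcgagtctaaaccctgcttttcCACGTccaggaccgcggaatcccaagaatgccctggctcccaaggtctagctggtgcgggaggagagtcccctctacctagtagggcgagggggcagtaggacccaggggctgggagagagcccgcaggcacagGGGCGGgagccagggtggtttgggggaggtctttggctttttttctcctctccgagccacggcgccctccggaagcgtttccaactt
Plod1: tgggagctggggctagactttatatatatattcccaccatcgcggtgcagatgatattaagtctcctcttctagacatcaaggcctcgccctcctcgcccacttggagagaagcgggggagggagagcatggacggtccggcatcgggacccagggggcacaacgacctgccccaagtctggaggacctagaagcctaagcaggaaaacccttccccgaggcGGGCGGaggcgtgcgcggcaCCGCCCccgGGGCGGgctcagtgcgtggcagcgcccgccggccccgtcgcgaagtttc
P4ha1: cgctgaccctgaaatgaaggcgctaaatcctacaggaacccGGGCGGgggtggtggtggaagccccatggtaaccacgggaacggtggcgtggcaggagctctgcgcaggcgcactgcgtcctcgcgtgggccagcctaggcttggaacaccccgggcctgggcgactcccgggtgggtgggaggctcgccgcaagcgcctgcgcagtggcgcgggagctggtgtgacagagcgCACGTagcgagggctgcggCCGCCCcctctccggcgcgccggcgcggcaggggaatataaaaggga
P4ha2: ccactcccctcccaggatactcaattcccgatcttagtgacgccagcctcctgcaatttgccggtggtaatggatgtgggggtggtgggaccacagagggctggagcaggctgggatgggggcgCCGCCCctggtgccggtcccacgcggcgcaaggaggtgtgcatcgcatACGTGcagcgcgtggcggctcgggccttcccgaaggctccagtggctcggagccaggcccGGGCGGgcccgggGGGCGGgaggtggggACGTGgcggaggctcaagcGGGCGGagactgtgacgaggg
All 4 windows held the GC box, with 1 match in Serpinh1, 3 in Plod1, 2 in P4ha1 and 4 in P4ha2, and it occurred in 35.7% of 32851 RefSeq promoters of the same length. The Pcolce window, of a gene that did not pass, held 1 match too. ACGTG was found in Serpinh1 (1 match), P4ha1 (1) and P4ha2 (2), and in neither Plod1 nor Pcolce, with 19.6% of all promoters holding it. The pair GAANNTTC, as in heat shock elements, was found in Plod1 only, by a match that is not in capitals, and in 7.86% of all promoters. The motifs were chosen after these windows were seen, and a match describes letters, not binding.

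Related genes outside the set were counted in the same comparison. Among 9 tested other hydroxylases and collagen galactosyltransferases, 1 fell in aged WT hearts, P3h4, a partner of Plod1 in the hydroxylation of collagen lysines (log2 change -0.32 ± 0.11, adjusted p = 0.0474). Among 13 other folding and secretion factors 3 fell. They were Sparc, a collagen-binding matricellular protein (-0.80 ± 0.14, adjusted p = 5.93e-04), Sec23a, a coat protein of secretory vesicles (-0.38 ± 0.10, adjusted p = 0.0110), and Creb3l1, a transcription factor of secretory genes (-0.71 ± 0.23, adjusted p = 0.0358). The crosslinker Loxl2 fell (-0.59 ± 0.17, adjusted p = 0.0226), as 1 of 4 other crosslinkers, and none of 5 other procollagen proteinases and enhancers changed by edgeR, with 1 at an unadjusted p under 0.05 and 1 called each by DESeq2 and by limma on FPKM.

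The substrates moved in the same comparison. Of 7 fibrillar collagen chains 4 fell, Col1a1 by a log2 change of -1.23 ± 0.19 (adjusted p = 2.92e-04), and of 8 network and microfibril chains 7 fell, Col6a2 by -1.01 ± 0.11 (adjusted p = 2.95e-06). Set against the summed FPKM of Col1a1, Col1a2 and Col3a1, Serpinh1 stood at 127 ± 40.3% in aged WT hearts and 123 ± 18.4% in young WT hearts, and Plod1 at 56.1 ± 21.98% in aged WT hearts and 39.2 ± 7.87% in young WT hearts (SD, n = 4 each). Pcolce stood at 80.8 ± 17.5% of these collagens in aged WT hearts and 41.0 ± 2.68% in young WT hearts. Lox stood at 2.42 to 9.30% in aged WT hearts and 1.09 to 1.42% in young WT hearts. For Pcolce and Lox the hearts of the 2 groups did not overlap, and for the other members they did. No test was made on these ratios, and no share over all genes is given. The collagen sum itself was 103 FPKM in WT_Aged_1 and 37.6 to 54.8 FPKM in the other aged WT hearts, against 78.2 to 128 FPKM in young WT hearts. The high sum of WT_Aged_1 thus enters the SDs, ranges and overlaps of all aged WT ratios. The ratio of a gene with little change, such as Pcolce (log2 change 0.02), rises where the collagen sum falls. In KO hearts the Lox ratios did not overlap either, at 1.53 to 2.76% in aged and 1.01 to 1.49% in young KO hearts. The same held there for Plod2 (13.2 to 22.9% in aged, 8.67 to 13.0% in young KO hearts). It also held for Loxl1 (14.8 to 20.2% in aged, 10.96 to 14.5% in young KO hearts). Ratios of Pcolce and the remaining members overlapped in KO hearts. Of 14 general endoplasmic reticulum chaperones 6 fell, led by Manf, a secreted protein of the stress response (-0.55 ± 0.11, adjusted p = 9.93e-04), and Hspa5, the main chaperone of the compartment (-0.36 ± 0.08, adjusted p = 0.00177).

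The second comparison asked how the set changed with age in KO hearts. Of the 10 genes 1 rose and 1 fell, where 7.63% of all tested genes changed, 5.03% higher and 2.6% lower. The hearts did not overlap for 2 genes, both lower with age, where 15.7% of tested genes showed no overlap, 8.71% higher and 6.97% lower. The median log2 change of the 10 was 0.02, against -0.01 over all tested genes.

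Serpinh1 had 147.9, 162.5, 156.9 and 125.7 CPM in aged KO hearts, against 211.4, 201.3, 209.1 and 241.3 CPM in young KO hearts. Every aged KO heart was lower, and the log2 change was -0.54 ± 0.10 (adjusted p = 0.00254). Plod1 had 100.8, 95.8, 88.7 and 94.6 CPM in aged KO hearts, against 104.7, 107.4, 113.7 and 117.1 CPM in young KO hearts. Its hearts did not overlap either, and its log2 change of -0.22 ± 0.07 missed the threshold in edgeR (adjusted p = 0.0701) and passed it in DESeq2 (adjusted p = 0.0207).

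Fkbp10 had 23.9, 32.6, 37.5 and 35.3 CPM in aged KO hearts, against 24.3, 19.1, 22.6 and 23.7 CPM in young KO hearts. It rose in aged KO hearts, where 3 of the 4 were above every young KO heart and KO_Aged_114, at 23.9 CPM, was below KO_Young_27. The log2 change was 0.53 ± 0.12 (adjusted p = 0.00922). The aged KO hearts are those that singled out the gene, so this rise is not independent of the choice. With the fibroblast marker score as a covariate the change was 0.51 and did not pass (adjusted p = 0.0778). The fibroblast markers summed to 2872 to 3513 CPM in aged KO hearts, against 2563 to 3178 CPM in young KO hearts, with none of the 10 called by edgeR, 4 at an unadjusted p under 0.05, 1 called by DESeq2 and none by limma on FPKM. The macrophage markers summed to 371 to 403 CPM in aged KO hearts, against 206 to 256 CPM in young KO hearts, and 8 of the 8 rose. The ventricular cardiomyocyte markers summed to 73898 to 83346 CPM in aged KO hearts, against 86591 to 100985 CPM in young KO hearts, and 1 of the 8 fell. The part of both lists in these changes was not tested.

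The other hydroxylases and the extracellular enzymes did not pass in KO hearts. P4ha1 averaged 49.97 ± 6.00 CPM in aged KO hearts and 58.0 ± 8.41 CPM in young KO hearts, a log2 change of -0.21 ± 0.12 (adjusted p = 0.315). P4ha2 averaged 49.6 ± 4.14 CPM in aged KO hearts and 57.1 ± 4.51 CPM in young KO hearts (SD, n = 4 each), a log2 change of -0.20 ± 0.09 (adjusted p = 0.214). Plod2 (0.15), Pcolce (0.24), Bmp1 (0.01), Lox (0.33) and Loxl1 (0.04) had log2 changes of 0.01 to 0.33 and adjusted p of 0.292 to 0.969. Outside the set, Pcolce2, the second enhancer of the C-proteinase, rose (0.43 ± 0.11, adjusted p = 0.0199).

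**Figure D2:**
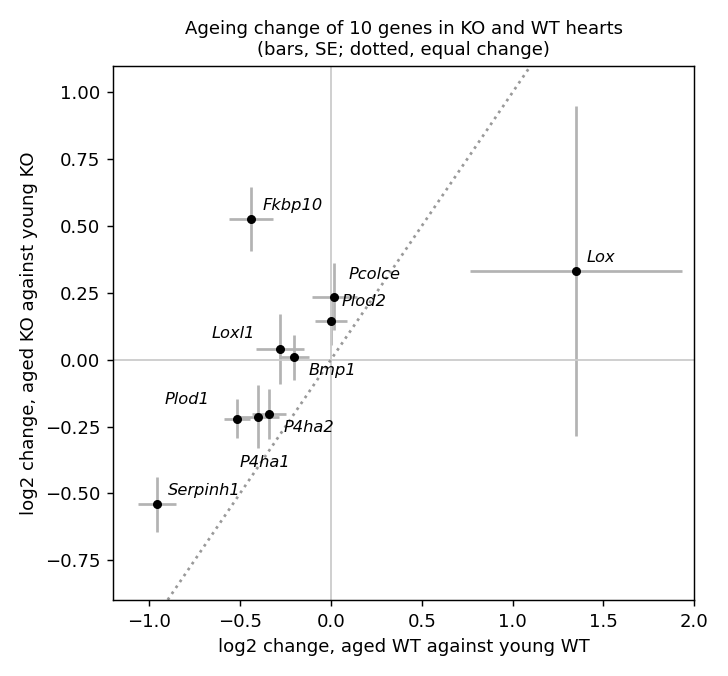
Ageing change of the 10 genes as log2 fold change in KO hearts (vertical axis) against that in WT hearts (horizontal axis); bars are SE and the dotted line marks equal change. Fkbp10 lies at 0.53 in KO and -0.44 in WT hearts, Serpinh1 at -0.54 in KO and -0.96 in WT hearts, and Lox has the widest bars.

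Whether the ageing change differed between genotypes was tested as the difference between the 2 ageing changes, KO less WT. Of the 10 genes 1 passed, Fkbp10, where 0.464% of all tested genes passed, 0.127% higher and 0.336% lower. Its difference was 0.96 ± 0.17 on the log2 scale (adjusted p = 0.0143), the sum of a rise in KO and a fall in WT hearts. It passed in all 16 fits that left out a heart (adjusted p 0.00400 to 0.0386), and not with the fibroblast marker score as a covariate, where the difference was 0.95 (adjusted p = 0.0519). The difference contains the aged comparison that chose the gene (log2 change 0.63, against -0.33 in young hearts). Neither its p nor the passes in the 16 fits are independent of that choice.

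The differences of the other genes did not pass. Serpinh1 had 0.42 ± 0.15 (adjusted p = 0.236) with a 95% interval of 0.11 to 0.72, and Plod1 had 0.30 ± 0.10 (adjusted p = 0.236) with an interval of 0.08 to 0.51. The sign was positive for 9 of the 10 genes, against 50.9% of all tested genes, and the median was 0.21, against 0.0048 over all genes. Lox, the exception, had -1.02 with WT_Aged_1 and 0.26 without it. The 10 differences share the same 16 hearts, so their common sign is 1 pattern and not 10 observations.

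The third comparison set aged KO against aged WT hearts. Of all tested genes 0.875% were called, 0.165% higher and 0.71% lower. Of the 10 genes 1 was called, Fkbp10, through which the set was chosen. This count is therefore not compared with that share, and nothing is read from it. The hearts did not overlap for 2 genes, both higher in KO, where 5.04% of tested genes showed no overlap, 2.1% higher and 2.94% lower. Fkbp10 had 23.9, 32.6, 37.5 and 35.3 CPM in aged KO hearts, against 20.3, 22.5, 20.2 and 20.2 CPM in aged WT hearts. Every aged KO heart was above every aged WT heart, KO_Aged_114 by little, and the log2 change was 0.63 ± 0.12.

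Bmp1 was the other gene without overlap. It had 49.5, 55.2, 52.2 and 59.5 CPM in aged KO hearts, against 46.1, 48.4, 38.3 and 46.3 CPM in aged WT hearts. The 2 groups were separated by about 1 CPM, and the log2 change of 0.27 ± 0.08 did not pass (adjusted p = 0.161). Loxl1 had 40.4, 36.6, 40.6 and 32.3 CPM in aged KO hearts, against 35.0, 35.7, 22.2 and 27.6 CPM in aged WT hearts. They overlapped, and the log2 change was 0.32 ± 0.13 (adjusted p = 0.367).

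Lox had 7.7, 5.1, 7.1 and 6.1 CPM in aged KO hearts, within the range of the 3 aged WT hearts other than WT_Aged_1 except for KO_Aged_114 and KO_Aged_122. The log2 change was -1.13 ± 0.57 (adjusted p = 0.520), and 0.16 without WT_Aged_1. Serpinh1 (0.15), Pcolce (0.15), Plod1 (0.13), P4ha2 (0.03), Plod2 (-0.04) and P4ha1 (-0.10) had log2 changes between -0.10 and 0.15, with adjusted p of 0.542 to 0.950. In aged KO hearts the 8 macrophage markers summed to 371 to 403 CPM, against 495 to 704 CPM in aged WT hearts. All 8 had a negative log2 change, and 1 of the 8 fell by edgeR. There were 7 at an unadjusted p under 0.05, 5 called by DESeq2 and none by limma on FPKM. The 10 fibroblast markers summed to 2872 to 3513 CPM in aged KO hearts, against 2430 to 3101 CPM in aged WT hearts. The 8 atrial cardiomyocyte markers summed to 297 to 819 CPM in aged KO hearts, highest in KO_Aged_114, against 302 to 666 CPM in aged WT hearts. Myl4 and Myl7, light chain genes of atrial myosin named after their values were seen, were among them. Myl4 averaged 31.3 ± 31.5 CPM over the 4 aged KO hearts, against 2.27 ± 0.614 CPM over the 4 aged WT hearts (mean ± SD). Myl7 averaged 15.7 ± 18.01 CPM over the 4 aged KO hearts, against 0.158 ± 0.113 CPM over the 4 aged WT hearts. Stk39 of the same list went the other way, at 117 ± 13.4 CPM over the 4 aged KO hearts, against 139 ± 6.94 CPM over the 4 aged WT hearts. Of the 7 tested atrial markers, 6 had a positive log2 change between aged KO and aged WT hearts and 1 a negative one. None of the 7 passed by edgeR in this comparison. There were 5 at an unadjusted p under 0.05, 3 called by DESeq2 and none by limma on FPKM. The part of these markers in the levels of the set was not tested.

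Among related genes, P3h4 had 34.8, 46.2, 47.5 and 49.97 CPM in aged KO hearts, against 31.1, 40.3, 30.9 and 29.5 CPM in aged WT hearts, and its log2 change of 0.44 ± 0.11 did not pass (adjusted p = 0.0790). Col6a2, a chain of microfibril-forming collagen VI, rose in aged KO hearts (0.49 ± 0.11, adjusted p = 0.0368), as 1 of 8 network and microfibril chains. No gene of the other hydroxylase, folding, proteinase or crosslinker lists was called by edgeR, with 6 at an unadjusted p under 0.05, 1 called by DESeq2 and none by limma on FPKM.

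The fourth comparison set young KO against young WT hearts. None of the 10 genes was called by edgeR, with 4 at an unadjusted p under 0.05 and none called by DESeq2 or by limma on FPKM, where 0.269% of all tested genes were called by edgeR, 0.0523% higher and 0.217% lower. The log2 change was negative for 9 of the 10, and 51.2% of all tested genes had a positive one. The hearts did not overlap for 2 genes, both lower in KO, where 8.49% of tested genes showed no overlap, 4.06% higher and 4.43% lower.

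Those 2 were Fkbp10 and Plod1. Fkbp10 had 24.3, 19.1, 22.6 and 23.7 CPM in young KO hearts, against 28.97, 25.9, 32.5 and 25.5 CPM in young WT hearts, and its log2 change was -0.33 ± 0.12 (adjusted p = 0.313). Plod1 had 104.7, 107.4, 113.7 and 117.1 CPM in young KO hearts, against 122.2, 124.9, 125.6 and 122.9 CPM in young WT hearts, and its log2 change was -0.16 ± 0.07 (adjusted p = 0.423). For Fkbp10 the order of the genotypes was thus opposite at the 2 ages, with no overlap at either. Serpinh1 had 211.4, 201.3, 209.1 and 241.3 CPM in young KO hearts, against 310.7, 239.4, 242.0 and 246.4 CPM in young WT hearts. KO_Young_53 overlapped the young WT range, and the log2 change was -0.27 ± 0.10 (adjusted p = 0.338). P4ha1 had -0.29 ± 0.12 (adjusted p = 0.372), Plod2 -0.18 ± 0.09 (adjusted p = 0.474) and P4ha2 -0.10 ± 0.09 (adjusted p = 0.718). The log2 changes of Pcolce (-0.07), Bmp1 (0.06), Lox (-0.11) and Loxl1 (0.00) did not pass either. The young KO and young WT libraries also entered the ageing comparisons, so these values are not separate from those above.

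**Figure D3:**
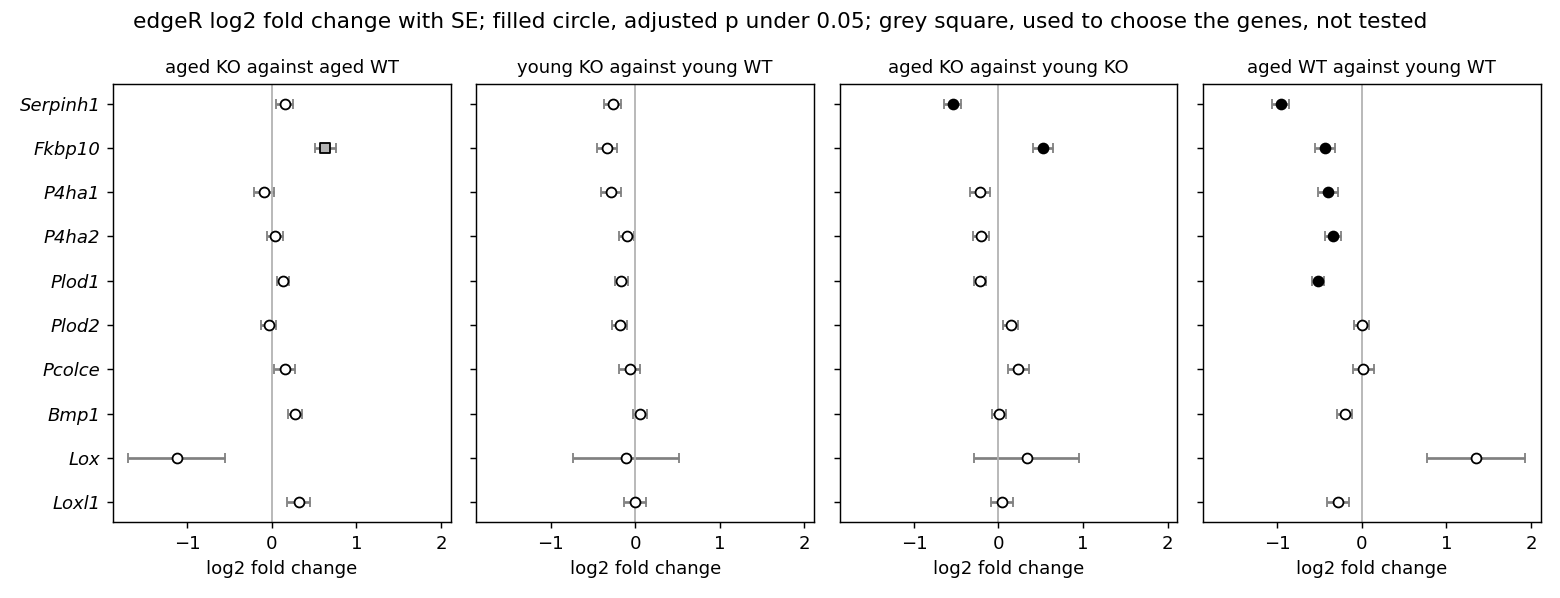
Log2 fold change (horizontal axis) with SE of the 10 genes in the 4 comparisons of groups; filled circles passed an adjusted p of 0.05, open circles did not, and the grey square is the change of Fkbp10 by which the list was chosen, drawn without a test. In the comparison of aged with young WT hearts 5 genes are filled, all to the left of 0, and in that of young KO with young WT hearts none is.

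The profile of a gene over the 16 hearts was compared with those of all tested genes by the root mean square (RMS) difference of standardised log2 CPM, in SD. The nearest to Fkbp10 were Sfrp5, a secreted Wnt inhibitor (RMS 0.398 SD), P3h4 (0.493 SD) and Anpep, an aminopeptidase (0.598 SD). The median over all tested genes was 1.40 SD, but genes picked as the nearest lie below it by construction. The nearest genes to the other members lay at 0.284 SD (Plod1) to 0.536 SD (Plod2). The 0.398 SD of Fkbp10 was within that range, so its match was not unusually close. Sfrp5 had 0.917 to 3.23 CPM in aged KO hearts, 0.243 to 1.03 CPM in aged WT hearts, 0.329 to 0.751 CPM in young KO hearts and 1.17 to 1.61 CPM in young WT hearts. All of these lie below the lowest value of Lox in any heart (4.09 CPM), so the Sfrp5 profile rests on few reads. KO_Aged_114 was the lowest aged KO heart for Fkbp10, Sfrp5, P3h4 and Anpep alike. The 3 genes were picked for closeness over these same 16 hearts, so this shared order follows from the choice and is not separate evidence. P3h4 lies next to Fkbp10 in RefSeq without overlapping it, and of the 3 it is the gene tied to collagen.

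**Figure D4:**
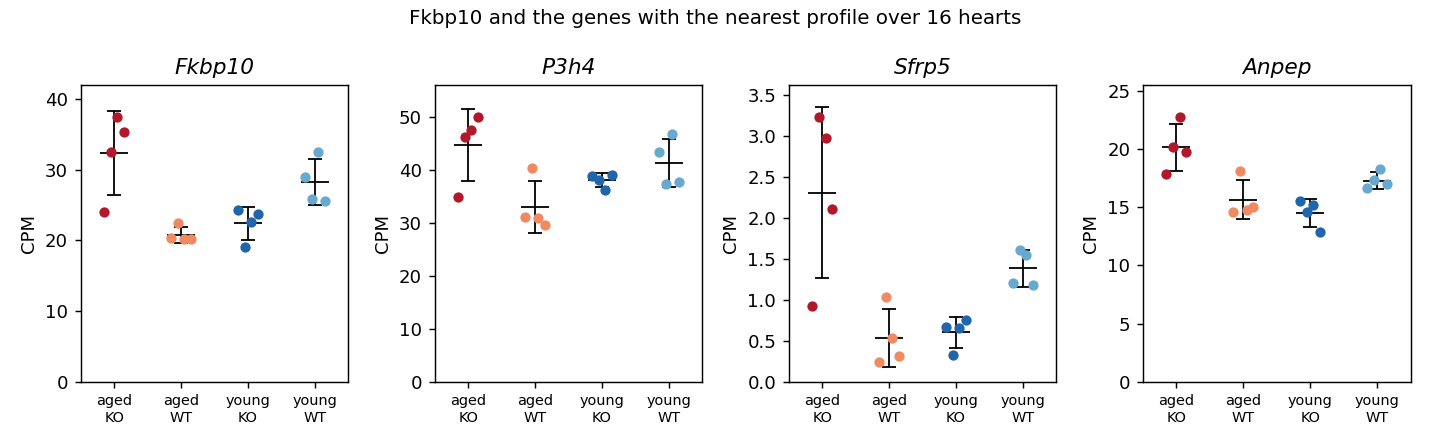
Level in CPM (vertical axis, from 0) of Fkbp10 and the 3 genes nearest to it in profile, by heart and group; bars are means and whiskers 1 SD over 4 hearts. In all 4 genes the aged KO mean is the highest, KO_Aged_114 is the lowest aged KO heart and WT_Aged_4 the highest aged WT heart. The 3 genes were picked for closeness to Fkbp10 over these same 16 hearts, so a shared order follows from the choice.

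The other neighbour of Fkbp10, Nt5c3b, overlaps it in RefSeq. The labels do not say that counting used strand, and Fkbp10 had counts that were not whole in 6 of 16 libraries while the other 9 genes had whole counts in every library, so its level is uncertain to the extent that reads were shared. Nt5c3b had 17.8 to 22.4 CPM in the aged hearts of both genotypes, with a log2 change of 0.05 between the aged genotypes, KO over WT (adjusted p = 0.918) and of -0.13 in aged WT against young WT hearts (adjusted p = 0.341).

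Within the set the closest profiles were those of Serpinh1 and Plod1 (RMS 0.537 SD) and of Serpinh1 and P4ha1 (0.639 SD), whereas Fkbp10 was 1.32 SD from Serpinh1 and closest to Bmp1 (1.06 SD). Lox and Plod1 were the farthest apart (1.77 SD). Outside the set, the nearest gene to Serpinh1 was Dnaja1, a cytosolic J-domain co-chaperone (0.315 SD), which had 67.2 to 95.8 CPM in aged WT hearts, against 128 to 218 CPM in young WT hearts. WT_Young_29 was the highest young WT heart for both Serpinh1 and Dnaja1. The nearest to Plod1 was the integrin subunit gene Itga5 (0.284 SD), that to P4ha1 was St13 (0.456 SD), and that to P4ha2 was Nup62 (0.293 SD). Zfp748 (0.536 SD) was nearest to Plod2, Mfap4 (0.531 SD) to Loxl1, Vim (0.442 SD) to Pcolce and Hnrnpa0 (0.532 SD) to Bmp1. Lox was nearest to Lcn2, which encodes lipocalin 2 (0.394 SD), and Lcn2 stood at 28.7 CPM in WT_Aged_1, against 1.68 to 3.84 CPM in the other aged WT hearts.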

How the data were processed

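RNA from 16 mouse hearts, 4 in each of 4 groups, was sequenced in bulk. The deposited table holds expected counts per gene, per the file headers and values, and a second deposited table holds FPKM, the authors' values per library size and gene length. Per the submitters' processing notes, the tools were HISAT and Bowtie2 and the genome build GRCm39, with no version or role; which program counted reads is not stated there. Groups follow the genotype and age labels, although titles of young WT samples start differently. FPKM columns matched their own library's counts (lowest correlation across genes after centring 0.97, against at most 0.649 with another library). Replicate hearts differed by more than sampling noise (lowest chi-square per degree of freedom 3.67). The pairs with WT_Aged_1 had 22.1 to 41.3, and the highest of the other pairs was 22.5, between WT_Aged_5 and WT_Aged_12.

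Expected counts were rounded and tested with edgeR 4.0.16 in R 4.3.3 (filterByExpr, TMM, robust quasi-likelihood F test, 1 fit of 16 libraries with 12 residual degrees of freedom, 13373 genes). Standard errors were derived from the log2 change and its F statistic, and 95% intervals from the t distribution. Profiles used log2 CPM with a prior count of 2. The script was tested on simulated data. Alternatives were RLE scaling, no filter, DESeq2 1.42.0, limma 3.58.1 on log2(FPKM + 1) and log2(FPKM + 0.1), the fibroblast marker score as a covariate, only the 8 libraries compared, each heart left out, and, added after seeing the data, edgeR without its robust option. The members had at least 49 counts in every library, the lowest for Lox.

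The members and lists were chosen with earlier results of these data known. Named are all 10 genes, Armh4 and the nearest profile of each member (3 for Fkbp10). Up to 3 genes of each other collagen-pathway list are named in each comparison by adjusted p. The 3 most abundant markers are named for fibroblasts, macrophages and ventricular cardiomyocytes only. Myl4, Myl7 and Stk39 of the atrial list and the neighbours of Fkbp10 were added after their values were seen. Lists of hypoxia-inducible and elastic fibre genes, and markers of endothelial cells, atrial cardiomyocytes, mesothelium and adipocytes, were counted too.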

Additional observations from a re-analysis of the deposited data

Results flagged for a closer look

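There were 3 values far from those of the other 3 hearts of their group, out of 40 groups of 4 hearts examined, where chance gives about 1 in 20. Fkbp10 stood at 22.5 CPM in WT_Aged_4, against 20.2 to 20.3 CPM in the other aged WT hearts, a gap of about 2 CPM in a group whose other values nearly coincided. Serpinh1 stood at 311 CPM in WT_Young_29, against 239 to 246 CPM in the other young WT hearts. Lox stood at 39.7 CPM in WT_Aged_1, against 4.20 to 7.04 CPM in the other aged WT hearts.

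The ageing change of Fkbp10 differed between the genotypes by 0.96 on the log2 scale (edgeR, adjusted p = 0.0143). Its genotype change was 0.63 in aged hearts and -0.33 in young hearts, with no overlap of hearts at either age, and the difference between these is the same interaction. The aged change is the one by which the gene was known, so the p of the interaction is not independent of the choice of the gene.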

How the results depend on the processing

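Of 870 values of single genes under the alternatives, 853 kept their side of the threshold, 15 no longer passed, 2 newly passed and no called value changed sign. The count in aged KO against aged WT hearts was 1 and became 0 with only the 8 libraries compared, and 0 to 1 as hearts were left out, with 0 without KO_Aged_115 or KO_Aged_122; it rests on the change by which the set was chosen, and nothing is read from it. The count in aged against young WT hearts was 5 and became 3 on log2(FPKM + 1) and on log2(FPKM + 0.1), and 3 to 5 as hearts were left out, with 3 without WT_Young_39. The count in aged against young KO hearts was 2 and became 1 with the fibroblast marker score as a covariate, and that of the interaction was 1 and became 0. The count in young hearts was 0 under every alternative run. The cause of these changes was not tested; fits with fewer libraries have fewer degrees of freedom. DESeq2 called 261 genes in all in aged KO against aged WT hearts, against 117 by edgeR, and 149 against 36 in young hearts. No paired analysis was possible because the groups share no animal number. Lox had the lowest counts of the set, 49 to 489 per library.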

Other observations

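Lists that touch these genes without being part of collagen assembly gave the following counts. For aged WT against young WT hearts, 11.8% of all tested genes rose and 9.93% fell. The share that fell was 0.71% in aged KO against aged WT hearts and 0.217% in young KO against young WT hearts. For the difference between the ageing changes, 0.464% of all tested genes passed. Of 11 elastic fibre genes, 3 fell in aged WT against young WT hearts, Eln by a log2 change of -0.77 ± 0.15 (adjusted p = 0.00102), and Fbln2, a fibulin, differed in its ageing change between the genotypes by 0.61 ± 0.12 (adjusted p = 0.0256). Fbln2 also fell in young KO against young WT hearts (-0.40 ± 0.08, adjusted p = 0.0486), as did Hspa5 (-0.39 ± 0.08, adjusted p = 0.0374), 1 of 14 general endoplasmic reticulum chaperones, all 14 of which had a negative log2 change there. Of 15 tested hypoxia-inducible genes, 5 rose and 1 fell in aged WT against young WT hearts, with Pfkfb3, a regulator of glycolysis, at 1.35 ± 0.16 (adjusted p = 7.85e-06). In aged KO against aged WT hearts 1 of the 15 fell, again Pfkfb3 (-0.71 ± 0.15, adjusted p = 0.0299), whose ageing change differed between KO and WT hearts by -1.04 ± 0.22 (adjusted p = 0.0438). Of the 8 endothelial markers 1 rose and 2 fell in aged WT hearts against young WT hearts. Of the 7 tested atrial markers none passed by edgeR in the other comparisons, with 1 in each at an unadjusted p under 0.05 and 1 called by DESeq2 and by limma in aged WT against young WT hearts. No mesothelial and valve (2 tested) or adipocyte (1 tested) marker passed in any comparison of groups by edgeR, and none had an unadjusted p under 0.05 or was called by DESeq2.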
